A study of Mus musculus with 6 samples.

Results

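The 8 genes described here encode secreted and surface molecules of regulatory T cells (Tregs), several of which restrain other cells. The genes are Il10, Ebi3, Tgfb1 and Areg (secreted factors), Lrrc32 and Itgb8 (proteins that hold and activate TGF-beta) and Entpd1 and Nt5e (ectoenzymes). They were taken as a named set, and their accessible regions were the peaks that overlapped the RefSeq span of each gene on mm10 or 10 kb on either side. These windows held 44 of the 64817 regions made by merging the peaks of all libraries, and 28 of the 44 were called in all 6 libraries, against 29419 of all merged regions (45.4%). The peaks came from ATAC-seq, in which the transposase Tn5 cuts open chromatin and tags it for sequencing. The libraries were made from CD4+CD25+GITR+ Tregs sorted from the lymph nodes that drain a B16.F10 melanoma, a transplantable mouse tumour line, 14 days after 300000 tumour cells were injected subcutaneously. There were 3 libraries from il33-/- mice in a C57BL6 background (KO) and 3 from C57BL6 mice (WT), and both groups carried the tumour, so none of the comparisons is with a mouse free of tumour. The age of the mice is not given in the labels, nor whether the replicates came from separate mice, so the spread behind each p-value is that of the libraries and may be technical.

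Interleukin-10 and the cytokines that contain Ebi3 act on receptors of other leukocytes and damp inflammation. TGF-beta is made as a latent complex, which GARP, the product of Lrrc32, anchors on the Treg surface and from which integrins containing the beta subunit encoded by Itgb8 free the active cytokine. The enzymes encoded by Entpd1 and Nt5e act in sequence outside the cell, from ATP over AMP to adenosine, which inhibits T cells. Amphiregulin, the product of Areg, binds the EGF receptor, and Tregs of inflamed tissue are known to make it in response to interleukin-33, the cytokine that KO mice lack.

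The KO libraries were shallower, with 8.21, 4.72 and 10.3 tags in units of 1000000 in replicates 1, 2 and 4, against 13.1, 12.9 and 15.2 in WT replicates 2, 4 and 6, and no KO library reached the depth of a WT library. For every difference given here, sequencing depth and genotype cannot be told apart. All 7 Treg markers examined (Foxp3, Il2ra, Ikzf2, Ctla4, Tnfrsf18, Cd4 and Cd3e) had peaks in each of the 6 libraries. Of the markers of other cells, 2 to 3 of 4 for B cells and for CD8 T and NK cells, 2 of 4 for myeloid cells and 3 of 5 for melanoma had a peak in each library. These lists summed to 6 to 9 peaks in KO and 11 to 14 in WT for B cells and to 2 to 3 in KO and 5 to 6 in WT for CD8 T and NK cells. They summed to 5 to 6 in KO and 6 in WT for myeloid cells, and 7 to 10 in KO and 8 to 11 in WT for melanoma. The Treg markers summed to 46 to 49 peaks in KO and 59 to 65 in WT lists. Ms4a1, Ncr1, Lyz2, Csf1r, Tyr and Dct had 0 peaks in every list. The part of other cells in the values was not tested, and in sorted populations fewer cells with an open site and a less open site in each cell cannot be told apart.

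The 3 tallest regions in these windows lay over gene starts, of B9d2, of Entpd1 with Tctn3, and of Yju2 with Gm16712, so that 2 of them belonged to neighbouring genes. Height is given as the pileup at the summit, the number of extended tags that cover it, divided by the median pileup of the same peak list, so that 1 is the height of a typical peak of that list. By this scaled height, the region over the starts of Entpd1 and its neighbour Tctn3 averaged 3.51 ± 0.570 (KO) and 4.11 ± 0.337 (WT; SD, n = 3 each, here and in what follows), and that over the start of Tgfb1 2.25 ± 0.338 in KO and 2.80 ± 0.308 in WT. The starts of Nt5e, at 2.09 ± 0.383 in KO and 2.67 ± 0.391 in WT, and of Itgb8, at 1.92 ± 0.0881 in KO and 2.63 ± 0.234 in WT, followed. Areg was lower, at 1.22 ± 0.202 in KO and 2.10 ± 0.190 in WT, and the second start of Entpd1 had 1.12 ± 0.209 in KO and 1.44 ± 0.147 in WT. The start of Ebi3 was lowest, at 0.820 ± 0.129 in WT, and was called in only 1 KO list. Tgfb1 and Nt5e, next to each other in this order, differed by less than their SD in both genotypes, and Nt5e and Itgb8 by less than the SD of Nt5e.

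**Figure D1:**
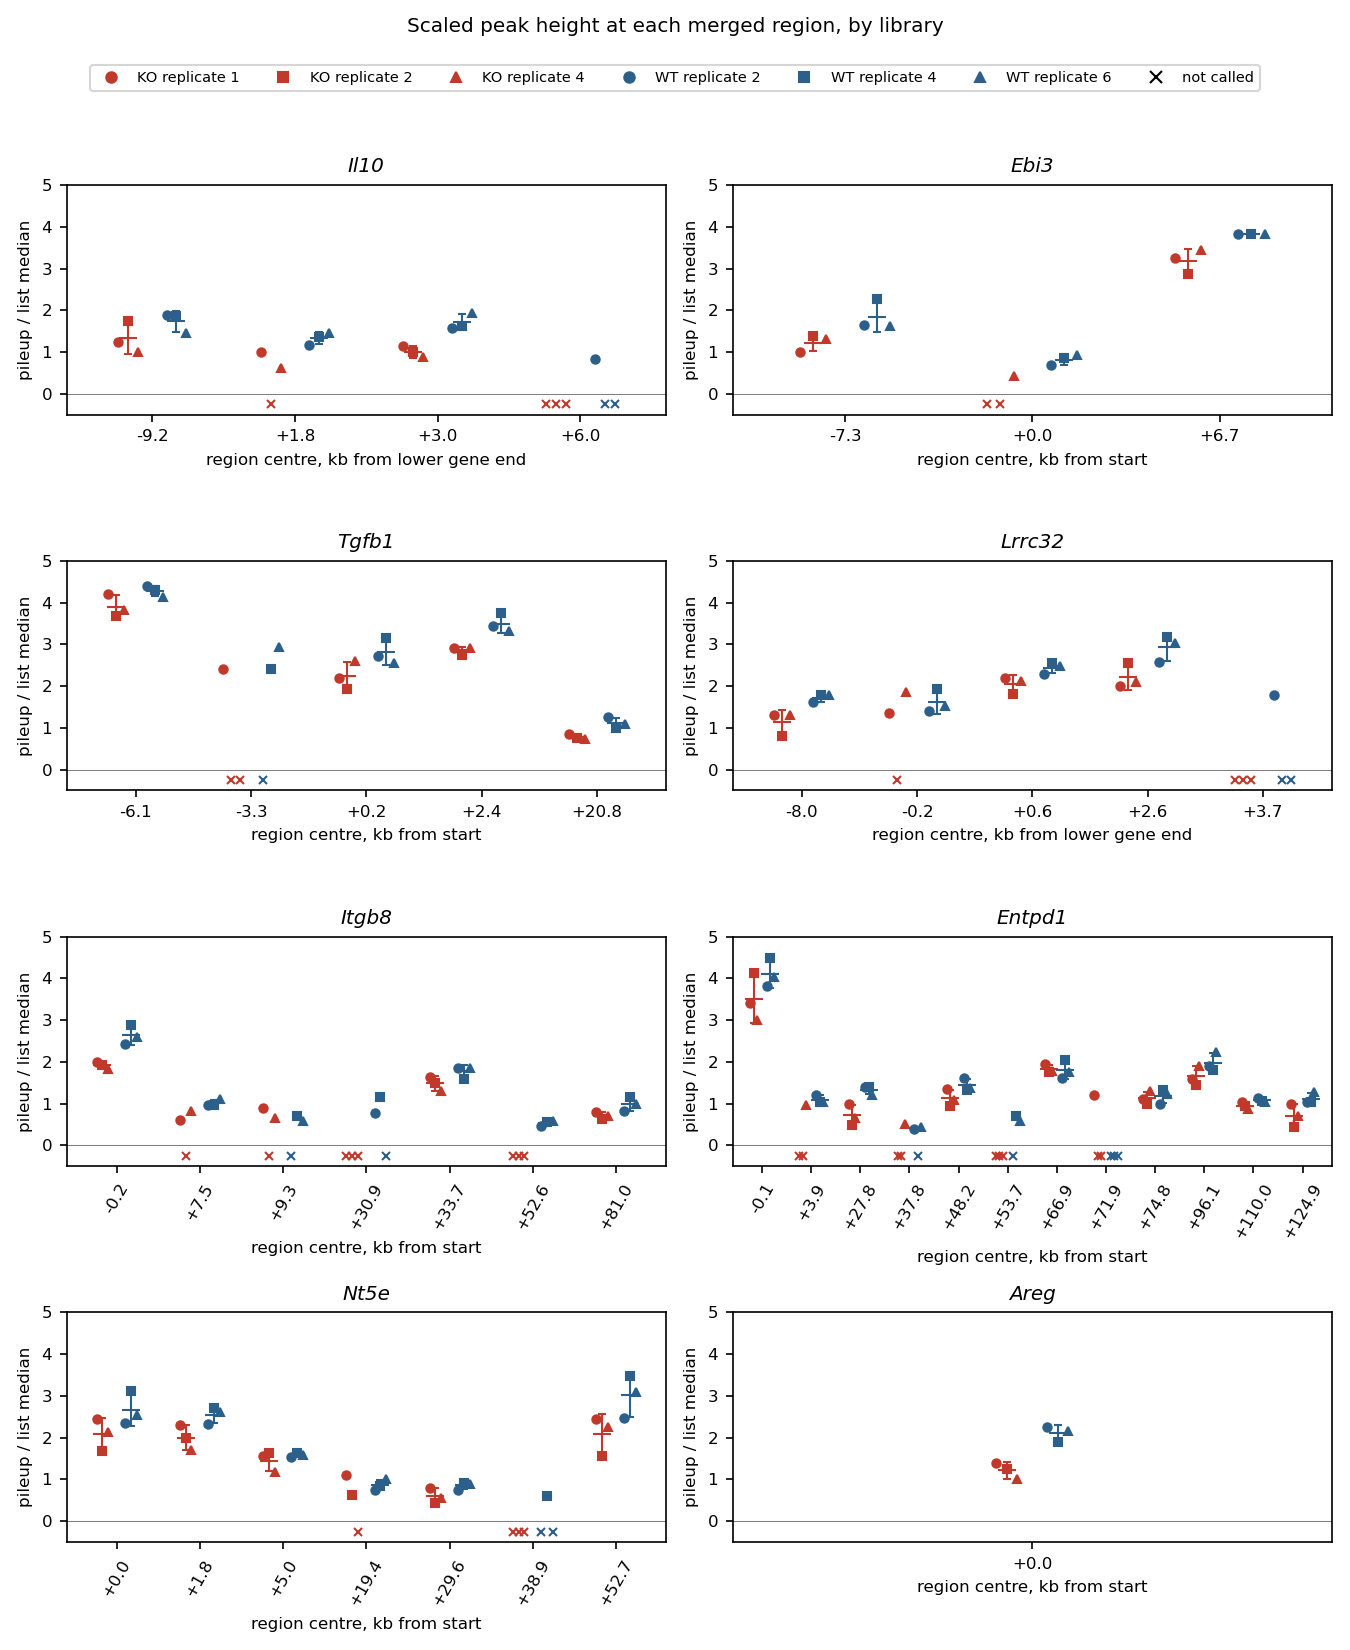
Scaled peak height (pileup over the median pileup of the list, linear axis) at each of the 44 merged regions, by library, with the distance of the region centre from the gene start, or from the lower-coordinate gene end for Il10 and Lrrc32, on the horizontal axis. Points are libraries, bars are the mean and SD where all 3 libraries of a genotype called the region, and crosses below 0 mark lists without it; the single Areg region is lower in all 3 KO libraries, while the tallest Entpd1 region spans 3.0 to 4.12 in KO and 3.82 to 4.48 in WT.

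Across the 28 regions called in all 6 libraries, the log2 difference of scaled height was below 0 at 27. The median over all 29419 regions called in all 6 libraries was also below 0. The share of these regions with a difference below 0 is not given. By limma with Benjamini-Hochberg adjustment over all 29419 regions, 14 of the 28 were lower in KO at an adjusted p under 0.05 and 0 were higher (19 and 0 at an unadjusted p under 0.05), while 34.6% of all regions were called lower and 0.0374% higher. In 15 of the 28 every KO library lay below every WT library, against 48.2% of all regions, and in 0 every KO library lay above every WT library, against 0.197%. The median log2 difference, KO minus WT, was -0.37 over the 28 regions and -0.32 over all 29419, a shift that comes with this scale. It was -0.40 to -0.36 in the lower 3 of 5 equal classes of regions by height, -0.32 in the next and -0.20 in the tallest. Differences below are therefore also given relative to the median of all regions, on which scale 17 of the 28 were below it and 11 above.

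The calls depended on the scale. When pileup was instead divided by its median over the regions called in all 6 libraries, 0 of the 28 were called by limma in either direction (3 lower and 2 higher at an unadjusted p under 0.05), against 0.323% of all regions lower and 2.10% higher. On that scale every KO library lay below every WT library at 3 regions and above at 3, against 6.90% and 13.7% of all regions. With depth-scaled pileup, that is pileup per 1000000 tags of the library, 0 of the 28 were called as well (1 lower and 0 higher unadjusted), against 0.00340% of all regions lower and 0.00680% higher. The groups were then separated at 1 region, lower in KO, and at 0 higher, against 3.34% and 4.70% of all. After quantile normalization, an alternative chosen after the data were seen, 0 were called (3 lower and 1 higher unadjusted), against 0.105% of all regions lower and 0.0714% higher. Without WT replicate 4 the 14 calls became 3 (10.7%), where 10.1% of all regions were called lower, and without WT replicate 6 they became 7 (25%), against 19.5% of all regions. On the scale of the lists, Areg, the Il10 region at +3.0 kb and the Entpd1 region at +27.8 kb were called whichever single library was left out, and each of the other 11 lost its call without WT replicate 4. These are the same 3 regions that were called without WT replicate 4, where 10.1% of all regions were called lower. The share of all regions called in every such run is not given. Also on the scale of the lists, the 95% limma interval lay wholly below the median of all regions at 3 of the 28, in Areg, Il10 and Entpd1, and wholly above it at 1, in Entpd1, against 5.87% and 8.11% of all regions. These intervals are not adjusted for the number of regions.

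**Figure D2:**
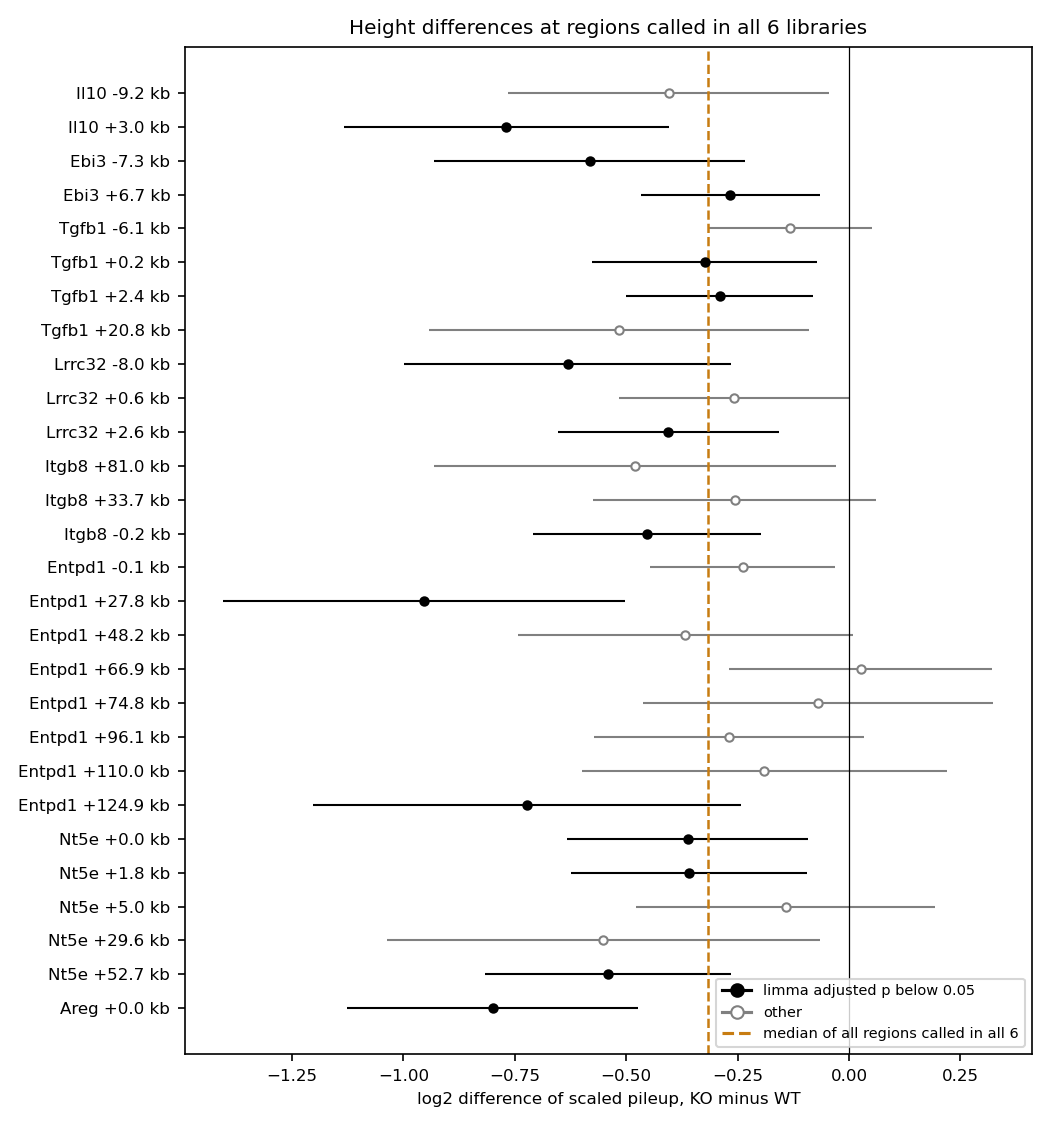
Log2 difference of scaled height, KO minus WT, at the 28 regions called in all 6 libraries, with 95% limma intervals. Filled points passed an adjusted p of 0.05, and the dashed line is the median of all 29419 regions, -0.32; most points scatter around that line and not around 0, and Entpd1 at +27.8 kb (-0.95), Areg (-0.80), Il10 at +3.0 kb (-0.77) and Entpd1 at +124.9 kb (-0.72) lie farthest to the left.

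Areg had a single accessible region within 10 kb, chr5:91139155-91140086, over its start, and it was called in each list. Because the peak summits lay between 93 bases before and 186 bases after the start, the 250 bases before the start are shown from RefSeq (GRCm38.p6, chr5:91139349-91139598, plus strand), 5′ to 3′, with the match to the CREB motif TGACGTCA in capitals:
Areg: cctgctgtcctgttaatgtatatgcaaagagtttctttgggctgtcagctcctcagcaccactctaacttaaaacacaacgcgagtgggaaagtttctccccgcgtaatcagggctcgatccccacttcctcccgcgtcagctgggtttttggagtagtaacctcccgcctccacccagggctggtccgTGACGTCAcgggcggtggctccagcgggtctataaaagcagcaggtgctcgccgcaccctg
The match lay 61 to 54 bases before the start. The same 8 letters, searched on both strands, occurred in the 250 bases before 1.55% of 32851 RefSeq starts. A match describes the letters and not the binding of a factor.

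At this region the scaled height was 1.40, 1.25 and 1.0 in KO replicates 1, 2 and 4, against 2.25, 1.89 and 2.17 in WT replicates 2, 4 and 6. The groups did not overlap, and the tallest KO library stayed below the lowest WT library. The KO mean was 0.578 of the WT mean, and the log2 difference was -0.80 ± 0.16 (SE, n = 3 each; limma adjusted p = 0.00108), which is -0.48 relative to the median of all regions, or a fold of 0.716 (95% interval -0.81 to -0.16 on the log2 scale). With the median over shared regions as the scale the groups still did not overlap, but limma gave an adjusted p of 0.111. The depth-scaled pileup was 3.41, 4.23 and 2.23 in KO and 4.82, 3.94 and 4.14 in WT, so that KO replicate 2, the shallowest library, lay inside the WT range. Measured as the deposited fold enrichment over local background, the difference was -0.23 relative to the median of all regions (adjusted p = 0.0913). The peak was also shorter in KO, at 648, 580 and 602 bp, than in WT, at 932, 876 and 814 bp, without overlap.

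Il10 encodes the anti-inflammatory cytokine interleukin-10. Its window held 4 regions, of which 2 were inside the gene. The one at chr1:131022527-131023157, whose centre is 3.0 kb from the lower-coordinate end of the gene, had scaled heights of 1.15, 1.0 and 0.870 in KO replicates 1, 2 and 4 and of 1.57, 1.63 and 1.93 in WT replicates 2, 4 and 6. Every KO library was below every WT library, with a KO mean 0.588 of the WT mean. The log2 difference was -0.77 ± 0.18 (SE; limma adjusted p = 0.00285), or -0.45 relative to the median of all regions (95% interval -0.82 to -0.09). The groups stayed apart on the scale of shared regions (adjusted p = 0.199) and overlapped by depth-scaled pileup, with 2.80, 3.39 and 1.94 in KO and 3.37, 3.40 and 3.68 in WT. As fold enrichment over local background the difference was -0.03 relative to the median of all regions (adjusted p = 0.693), that is close to that median.

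The neighbouring region inside Il10, chr1:131021466-131021864, was called in all 3 WT lists, at 1.18, 1.37 and 1.45, and in 2 KO lists, at 1.0 in replicate 1 and 0.609 in replicate 4. KO replicate 2 had no peak there. The depth-scaled WT pileup would give 12.8 tags at its depth, where the least significant 10% of its peaks had a median pileup of 6. In KO replicate 4 the region had a pileup of 14, where the same 10% had a median of 10. It still lay at a within-list percentile of only 2.15 by significance. Pileup alone thus does not tell whether the site could be called, and the cause was not tested. The region outside the gene at -9.2 kb, chr1:131010219-131011063, was called in each list at 1.25, 1.75 and 1.0 in KO and 1.89, 1.85 and 1.45 in WT, and the groups overlapped (log2 difference -0.40, limma adjusted p = 0.0693, -0.09 relative to the median of all regions). This depended on single libraries: without KO replicate 2 the region was called lower (adjusted p = 0.00739, -0.34 relative to the median), and without KO replicate 4 it lay 0.10 above the median. The last region, 6.0 kb from the lower-coordinate end and outside the gene, was called only in WT replicate 2.

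Ebi3 encodes a subunit shared by the heterodimeric cytokines interleukin-27 and interleukin-35. The region over its start, chr17:55952310-55952994, was the weakest of the start regions, and its summits lay between 236 bases before and 35 bases after the start. The 250 bases before the start are shown because this was the only region over an annotated start of the set that was not called in every list (GRCm38.p6, chr17:55952373-55952622, plus strand), with a match to the NF-kB motif in capitals:
Ebi3: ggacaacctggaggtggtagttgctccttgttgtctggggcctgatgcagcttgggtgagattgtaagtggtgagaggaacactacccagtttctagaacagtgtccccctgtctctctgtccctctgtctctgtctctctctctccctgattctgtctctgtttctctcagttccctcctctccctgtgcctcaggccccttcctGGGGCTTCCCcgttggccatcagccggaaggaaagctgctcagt
The match lay 44 to 35 bases before the start, and 7.25% of all RefSeq starts had one in the same window, on either strand. The region was called in WT replicates 2, 4 and 6 at scaled heights of 0.679, 0.852 and 0.931, and in KO replicate 4 at 0.435. KO replicates 1 and 2 had no peak there. At their depth the depth-scaled WT pileup would give 13.7 and 7.88 tags, where the least significant 10% of their peaks had median pileups of 8 and 6.

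The other regions of the Ebi3 window were the starts of neighbours. The one over the starts of Yju2 and Gm16712, chr17:55958745-55959941, was the tallest, at 3.25, 2.88 and 3.43 in KO and 3.82, 3.81 and 3.83 in WT. It was called lower in KO (log2 difference -0.27, limma adjusted p = 0.0363), but lay 0.05 above the median of all regions, and the call was also lost without KO replicate 2 (adjusted p = 0.156), WT replicate 2 (0.0771) or WT replicate 6 (0.104). The one over the start of the zinc finger gene Zfp119b, chr17:55944806-55945908, had 1.0, 1.38 and 1.30 in KO and 1.64, 2.26 and 1.62 in WT (log2 difference -0.58, adjusted p = 0.0117; -0.27 relative to the median of all regions). The relative difference was -0.10 without KO replicate 1 and -0.13 without WT replicate 4, where the call was lost (adjusted p = 0.129). Neither region can be assigned to Ebi3 from these data.

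Tgfb1 encodes TGF-beta 1, the form of this cytokine that prevails in lymphocytes. The region over its start, chr7:25686687-25687697, is shown by the 250 bases before the start (GRCm38.p6, chr7:25686752-25687001, plus strand), as an example of a tall start region whose difference lay close to the median of all regions, with a match to the NF-kB motif 140 to 131 bases before the start in capitals:
Tgfb1: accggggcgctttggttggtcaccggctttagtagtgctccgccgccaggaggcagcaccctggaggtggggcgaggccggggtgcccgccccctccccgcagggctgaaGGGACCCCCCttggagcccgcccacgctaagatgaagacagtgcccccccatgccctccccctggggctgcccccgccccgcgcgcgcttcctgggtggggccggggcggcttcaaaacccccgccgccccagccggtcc
With 75.2% G and C this window was richer in these bases than that of Areg (57.2%) and that of Ebi3 (56.0%), where the median of all RefSeq starts was 52.4%. Scaled heights were 2.20, 1.94 and 2.61 in KO and 2.71, 3.15 and 2.55 in WT. The groups overlapped, and the log2 difference of -0.32 (limma adjusted p = 0.0411) was -0.01 relative to the median of all regions. Only without KO replicate 4 did the call hold, and the adjusted p reached 0.220 without WT replicate 4.

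A second region inside Tgfb1, 2.4 kb after the start, was taller than the start itself. At chr7:25688799-25690031 it had 2.90, 2.75 and 2.91 in KO against 3.43, 3.74 and 3.31 in WT, without overlap, and a log2 difference of -0.29 (limma adjusted p = 0.0298), or 0.03 relative to the median of all regions; the call held only without KO replicate 1 or KO replicate 4, with an adjusted p of up to 0.145 otherwise. The tallest region of the window lay over the start of B9d2, at 4.20, 3.69 and 3.83 in KO and 4.39, 4.30 and 4.14 in WT, with no call (adjusted p = 0.231). On the scale of shared regions it was higher in each KO library than in each WT library, again with no call (adjusted p = 0.183). The weakest shared region, 20.8 kb after the start and beyond the gene, had 0.850, 0.750 and 0.739 in KO and 1.25, 1.0 and 1.10 in WT (adjusted p = 0.0525).

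Lrrc32, the gene of GARP, had its accessible sites close to its lower-coordinate end. Of its 5 regions, the tallest was chr7:98491710-98492111, inside the gene and 2.6 kb from that end, at 2.0, 2.56 and 2.09 in KO and 2.57, 3.19 and 3.03 in WT. The highest KO value fell just below the lowest WT value, and the log2 difference was -0.41 (limma adjusted p = 0.0130), or -0.09 relative to the median of all regions, with no call without WT replicate 6 (adjusted p = 0.0605). A region 0.6 kb from that end had 2.20, 1.81 and 2.13 in KO and 2.29, 2.56 and 2.48 in WT, with no call (adjusted p = 0.103). The region over the start of the non-coding gene Gm38588, chr7:98480874-98481675, was lower in KO, with 1.30, 0.812 and 1.30 against 1.61, 1.78 and 1.79 in WT (log2 difference -0.63, adjusted p = 0.0100, -0.31 relative to the median of all regions), with an adjusted p of 0.0589 and a relative difference of -0.12 without KO replicate 2. It was the only one of the 28 regions at which every KO library was below every WT library by depth-scaled pileup, with 3.17, 2.75 and 2.91 in KO and 3.44, 3.71 and 3.41 in WT. The region over the lower-coordinate end of the gene itself, chr7:98488831-98489439, was missing from KO replicate 2 and otherwise had 1.35 and 1.87 in KO and 1.39, 1.93 and 1.52 in WT. Lrrc32 had no annotated start among those used, so whether this region covers its start was not examined.

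Itgb8 encodes the integrin subunit that, paired with the alpha subunit encoded by Itgav, activates latent TGF-beta. Its start region, chr12:119237724-119239148, had scaled heights of 2.0, 1.94 and 1.83 in KO and 2.43, 2.89 and 2.59 in WT, without overlap. The log2 difference was -0.45 (limma adjusted p = 0.00842), or -0.14 relative to the median of all regions, and the groups overlapped on the scale of shared regions. As fold enrichment over local background the difference was 0.01 relative to the median of all regions (limma adjusted p = 0.787). The KO peaks were 950, 1090 and 879 bp long and the WT peaks 1270, 1232 and 1354 bp, again without overlap. Itgb8 was also the only member gene with a region that separated the genotypes by presence. Of the 44 regions, 1 was found in all WT and no KO lists, and 0 in all KO and no WT lists, against 4.66% and 0.0185% of all merged regions.

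That region, chr12:119185474-119185864, lies inside the gene, 52.6 kb after the start, and was weak. It had scaled heights of 0.464, 0.556 and 0.586 in WT replicates 2, 4 and 6, at within-list percentiles of 18.7, 31.1 and 39.8 by significance. At the depth of KO replicates 1, 2 and 4 the WT values would give 8.95, 5.15 and 11.2 tags, near the median pileups of 8, 6 and 10 of the least significant 10% of peaks in these lists. In lists cut to equal length it was no longer found in all 3 WT lists and none of the KO lists. A similarly weak region 9.3 kb after the start was called in 2 KO lists, at 0.900 and 0.652, and in 2 WT lists, at 0.704 and 0.586.

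Entpd1 encodes the enzyme CD39, which removes phosphates from extracellular ATP and ADP. It lies on chromosome 19, like Il33, 10.7 Mb away. With 12 regions and a span of 129237 bp it had the most accessible sites of the 8 genes. The start region that it shares with Tctn3, chr19:40611743-40612692, had 3.40, 4.12 and 3.0 in KO and 3.82, 4.48 and 4.03 in WT, overlapping (log2 difference -0.24, limma adjusted p = 0.0636, 0.08 relative to the median of all regions). Without KO replicate 2 it was called lower (adjusted p = 0.00995) and lay at -0.08 relative to the median. The region over the second annotated start, chr19:40659575-40661460, had 1.35, 0.938 and 1.09 in KO and 1.61, 1.33 and 1.38 in WT, which also overlapped (adjusted p = 0.109, or 0.0462 without KO replicate 1).

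The largest drop of any of the 28 regions was inside Entpd1, 27.8 kb after the first start, at chr19:40639776-40640496. Its scaled heights were 1.0, 0.50 and 0.652 in KO replicates 1, 2 and 4, against 1.39, 1.41 and 1.21 in WT replicates 2, 4 and 6. The KO mean was 0.537 of the WT mean, and the log2 difference was -0.95 ± 0.22 (SE, n = 3 each; limma adjusted p = 0.00279), or -0.64 relative to the median of all regions (95% interval -1.09 to -0.19). In KO replicate 2 the pileup was only 8, where the least significant 10% of peaks in that list had a median of 6. Without that library the relative difference was -0.44 (limma adjusted p = 0.00787). The groups stayed apart on the scale of shared regions (adjusted p = 0.119) and overlapped by depth-scaled pileup, where KO had 2.44, 1.69 and 1.45 and WT 2.99, 2.94 and 2.30. It was the only region of the 28 that was also called by fold enrichment over local background (adjusted p = 0.0478, against 4.33% of all regions called lower and 0.0442% higher that way).

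A region near the far end of the gene, 124.9 kb after the start at chr19:40736981-40737500, had 1.0, 0.438 and 0.696 in KO and 1.04, 1.04 and 1.28 in WT. The groups did not overlap, and the log2 difference was -0.72 ± 0.24 (limma adjusted p = 0.0198), or -0.41 relative to the median of all regions. Without KO replicate 2, the shallowest library, the relative difference was -0.13 and the adjusted p 0.135, and the call was also lost without WT replicate 4 (0.0620) or WT replicate 6 (0.0932). Without KO replicate 1 the relative difference was -0.67. In contrast, 66.9 kb after the start, at chr19:40678450-40680061, KO had 1.95, 1.75 and 1.78 and WT 1.61, 2.04 and 1.76. That was the only one of the 28 with a log2 difference above 0 (0.03, adjusted p = 0.887), which is 0.34 above the median of all regions (95% interval 0.05 to 0.64). On the scale of shared regions every KO library was above every WT library (adjusted p = 0.137). The differences relative to the median thus ran from -0.64 to 0.34 among the 8 shared regions of this gene. Whether these regions differ from each other in their response to genotype was not tested.

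**Figure D3:**
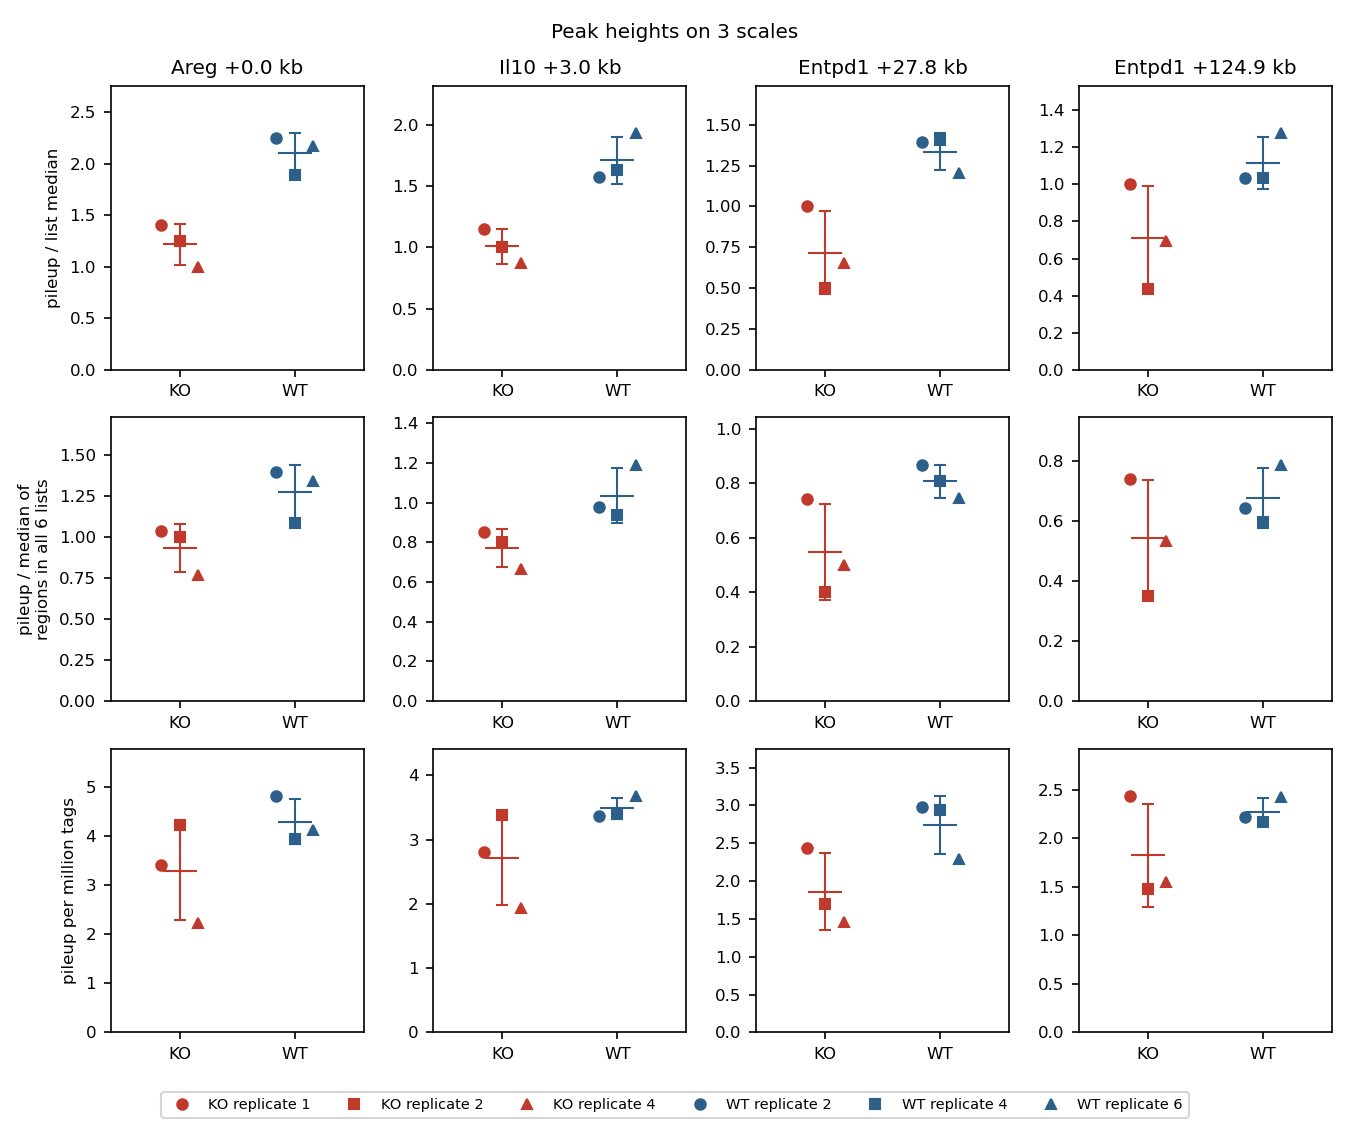
Heights of the 4 regions with the largest differences, at Areg, Il10 and Entpd1 (2 regions), on 3 linear scales: over the list median (top), over the median of regions in all 6 lists (middle) and per 1000000 tags (bottom). Points are libraries and bars the mean and SD of 3; KO is below WT without overlap in all 4 panels of the top row and in 3 of the middle row, while in the bottom row each pair of groups overlaps.

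Nt5e encodes CD73, which converts AMP to adenosine. Its start region, chr9:88327231-88328053, had scaled heights of 2.45, 1.69 and 2.13 in KO and 2.36, 3.11 and 2.55 in WT, and the groups overlapped (log2 difference -0.36, limma adjusted p = 0.0340, -0.05 relative to the median of all regions). A region 1.8 kb after the start, chr9:88329061-88329729, had 2.30, 2.0 and 1.70 in KO and 2.32, 2.70 and 2.62 in WT (log2 difference -0.36, adjusted p = 0.0325, -0.04 relative to the median). The tallest in WT lay beyond the gene, inside its neighbour Snx14 at chr9:88379911-88380616, with 2.45, 1.56 and 2.26 in KO and 2.46, 3.48 and 3.10 in WT (log2 difference -0.54, adjusted p = 0.00455, -0.22 relative to the median). That relative difference was -0.06 without KO replicate 2 and -0.14 without WT replicate 4, where the call was lost (adjusted p = 0.0663). The call at the start was also lost without KO replicate 2, KO replicate 4 or WT replicate 6 (adjusted p = 0.188, 0.0514 and 0.0661), and that at 1.8 kb without KO replicate 4 or WT replicate 6 (0.160 and 0.106). Of the other 4 regions, those 5.0 and 29.6 kb after the start were shared by all lists with no call (adjusted p = 0.482 and 0.0669). The region 19.4 kb after the start was missing from KO replicate 4, the deepest KO library, and present in KO replicates 1 and 2 at 1.10 and 0.625 and in WT at 0.750, 0.852 and 1.0. The region at 38.9 kb was called only in WT replicate 4.

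Some sites of these windows were missing from KO lists. Of the 35 regions called in all 3 WT lists, 7 (20%) were missing from at least 1 KO list, against 32.4% of all regions called in all 3 WT lists. All 28 regions called in every KO list were also called in every WT list, where 1.05% of all such regions were missing from a WT list. Of the 7, KO replicate 2 lacked 6, KO replicate 1 lacked 3 and KO replicate 4 lacked 2. By peak length, every KO library was shorter than every WT library at 16 of the 28 and longer at 0, against 40.3% and 0.238% of all shared regions. After division by the median length of the list the numbers were 6 and 0, for which the share of all regions is not given.

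Itgb8 had 5, 4 and 5 peaks in KO lists against 6, 7 and 6 in WT lists, the only member gene whose groups did not overlap (exact permutation p = 0.1, two-sided, the smallest that 3 against 3 libraries allow). Of all genes, 15.5% of 16246 protein-coding genes with a peak had fewer in every KO list and 0.388% more. Entpd1 had 9, 8 and 12 peaks in KO and 12, 12 and 13 in WT (exact permutation p = 0.3). Nt5e had 6, 6 and 5 against 6, 7 and 6, and Lrrc32 had 4, 3 and 4 against 5, 4 and 4. Il10 had 3, 2 and 3 peaks in KO and 4, 3 and 3 in WT, Ebi3 2, 2 and 3 against 3 in each WT list, and Tgfb1 5, 4 and 4 against 4, 5 and 5. Areg had 1 peak in each of the 6 lists. The whole set held 35, 30 and 37 peaks in KO and 41, 42 and 41 in WT lists. Per 10000 peaks of each list this is 8.25, 8.05 and 8.66 in KO and 7.70, 7.51 and 7.76 in WT. Per list length each KO list thus held more of these peaks than each WT list. A region called in every list counts for more per 10000 peaks in the shorter KO lists. Of the 44 regions 28 were called in every list, against 45.4% of all merged regions. Whether this accounts for the difference was not tested. Areg, with 1 peak in each list, differed by 0.0608 on this scale. The share of all genes with more peaks in KO on this scale is not given.

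**Figure D4:**
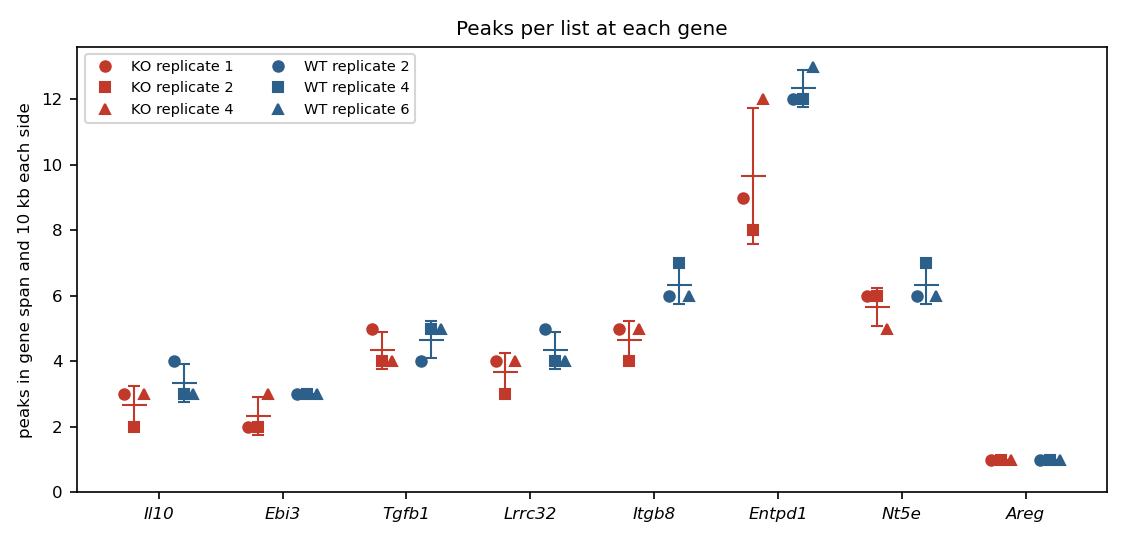
Number of peaks in the span of each gene plus 10 kb on either side, by library (points), with the mean and SD of 3 libraries. Only Itgb8 has fewer peaks in every KO list (4 to 5) than in every WT list (6 to 7), and Areg has 1 peak in each list.

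Other genes of the same pathways were counted in the same way. For interleukin-10 and interleukin-35 signalling, 4 of 11 genes had fewer peaks in every KO list and 0 had more, against 15.5% and 0.388% of all protein-coding genes with a peak. Among them was Il12rb2, a receptor chain, with 5, 4 and 6 peaks in KO and 7, 8 and 8 in WT. Stat4 had 14, 12 and 13 peaks in KO and 17, 16 and 18 in WT, and Prdm1, the Blimp-1 gene, had 8, 7 and 9 in KO and 12, 10 and 10 in WT. Another 3 genes of this list averaged more peaks in KO, with overlapping groups. Il12a had 2, 2 and 3 in KO and 2, 1 and 1 in WT (exact permutation p = 0.3). Il10rb had 5, 4 and 5 against 4 in each WT list, and Maf 2, 2 and 1 against 1 in each (exact permutation p = 0.4 for both). For TGF-beta activation and signalling, 3 of 13 had fewer and 0 more. Tgfb2 had 0 peaks in each KO and 1 in each WT list. Nrros, which encodes a relative of GARP, had 3, 2 and 3 in KO and 4 in each WT list. Itgav, the partner of Itgb8, had 8, 7 and 8 in KO and 9 in each WT list. Of 10 purine and adenosine genes, 1 had fewer in every KO list, the ectoenzyme gene Cd38, with 2, 2 and 1 against 4 in each WT list. Of 5 amphiregulin pathway genes, 1 did, Egfr, the receptor of amphiregulin, with 2, 2 and 4 against 7, 7 and 6. For these last 2 lists the share of genes with fewer peaks was near that of all genes. Each of the genes named whose groups did not overlap had an exact permutation p of 0.1, the smallest possible. The median difference in peaks was -0.667, -1.33, -0.50 and -0.333 over the 4 lists in this order, -0.667 over the 8 members and -0.333 over all protein-coding genes with a peak. A gene with few peaks cannot lose many, and the genes were not matched for their number of peaks. The counts were also not scaled to list length here, and whether the lists differ from all genes was not tested.

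In the windows of 250 bases before the 7 annotated starts of the 6 members with an entry, the motifs TGANTCA (AP-1), TTCNNNGAA (STAT), TGTTTAC (forkhead), TGTGGT (Runx) and ACAGGAAG (ETS) were not found on either strand. They occurred in 6.75%, 7.02%, 3.17%, 14.0% and 2.90% of all 32851 windows. Matches to the Smad motif CAGACA were found before Ebi3, Itgb8 and Nt5e (17.1% of all windows), and E-boxes (CANNTG) before Areg, Nt5e, Itgb8 and the first start of Entpd1 (66.2%). Il10 and Lrrc32 had no entry.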

How the data were processed

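Peak lists from 6 ATAC-seq libraries were used, grouped by genotype and named by the replicate numbers in the titles. The submitters' processing notes name mm10 as the build, with Picard 1.88 and Bowtie2 2.3.1 among the tools. Per the file headers, each library was called by itself with MACS 2.1.1.20160309, without a control, at a q-value of 0.05, with a tag shift of 100 bp, an extension size of 200 bp and 1 tag kept per position. Pileup was deposited as an unscaled signal, the tag coverage at the summit. The deposited fold enrichment is a ratio of that height to the local background, and its significance was deposited as −log10 of the p-value and of the q-value. A fixed q-value threshold can admit weaker sites in a deeper library, and a site absent from a list may still be open. Peak length was used as deposited.

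Peaks were merged where they shared 1 bp. In a region with several peaks of a library the tallest gave the height. Log2 scaled heights of the 29419 regions called in all 6 libraries were compared with limma 3.58.1 (R 4.3.3, intensity trend, Benjamini-Hochberg over all regions), and peak numbers with two-sided exact permutation tests over 20 assignments. In simulated data with 200 of 29419 regions changed by 1 on the log2 scale, limma recovered 61% of them with 4 false calls. The simulated data had no shift common to all regions, unlike the real data, where the median log2 difference was -0.32. Calls that come with such a shift were thus not tested, nor was the recovery of changes smaller than 1. Full values are given for regions over a member's start, the tallest region per gene, regions of one genotype only and regions past the threshold; other regions named were chosen after their values were seen. The values of 1 gene of the pathway lists are not reported here. Members, lists and tests were chosen with earlier results of these data known. Genes and promoter sequences are from RefSeq tables on GRCm38.p6, the assembly behind mm10, and 6 of 8 members had a promoter entry. Other scales, leaving out single libraries, a replicate block, equal-length lists and stricter thresholds were tried as alternatives. The replicate block was fitted on replicates 2 and 4 of both genotypes only. Computation used SciPy 1.17.1, pandas 2.3.3, NumPy 2.4.6 and Python 3.11.15, with figures from Matplotlib 3.10.9.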

Additional observations from a re-analysis of the deposited data

How the results depend on the processing

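Of the 28 shared member regions, 14 were called lower in KO by limma on the list-median scale, against 34.6% of all regions. The number was 0 with the median over shared regions, 0 with depth-scaled pileup, 1 with the deposited fold enrichment, 6 without the intensity trend (19.1% of all regions), 0 with quantile normalization (chosen after seeing the data; 3 lower and 1 higher at an unadjusted p under 0.05) and 0 with exact permutation tests, which cannot reach the threshold. Leaving out single libraries gave 3 to 16, with 10.1% to 35.4% of all regions, and the cause of the range was not tested. Replicates 2 and 4 of both genotypes share only a number (correlation of their deviations -0.02 and -0.05), and a fit with this replicate block called 11 (23.7% of all regions). That fit used only these replicates, without KO replicate 1 and WT replicate 6. Its values thus reflect both the block and the missing libraries. No region was called higher in KO under any of these settings. The median of the members minus that of all regions was -0.05 in the main comparison, -0.12 with the replicate block and -0.002 with the deposited fold enrichment. Relative to the median of all regions, Areg stayed below it under each alternative run (-0.58 to -0.23), as did Il10 at +3.0 kb (-0.53 to -0.03), Entpd1 at +27.8 kb (-0.94 to -0.44) and Entpd1 at +124.9 kb (-0.67 to -0.13). Those regions were picked for the largest differences in the same data. Among 234 such values of 18 regions, 25 at 10 regions changed sign, all where the main value was within 0.14 of that median. The median over shared regions, depth-scaled pileup and the fit without the intensity trend leave a relative value as it was. Under these settings no value could change sign, so they add nothing to this count.

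The 1 region found in all WT and no KO lists, at Itgb8, became 0 in equal-length lists, 2 with a stricter threshold (−log10 q of at least 5), 2 with 200 bp windows around summits and 1 to 3 without single libraries; none was found in all KO and no WT lists. Regions shorter in every KO library numbered 16, against 40.3% of all shared regions. They numbered 6 when lengths were divided by the list's median length, where the share of all regions is not given. Per 10000 peaks of a list, only 1 of 8 genes had fewer peaks in KO instead of 7: the difference turned to 0.0303 at Il10, 0.0143 at Ebi3, 0.199 at Tgfb1, 0.0910 at Lrrc32, 0.0726 at Entpd1 and 0.227 at Nt5e, and Lrrc32 turned to 0.333 peaks in equal-length lists. The KO lists are shorter, so a region called in every list counts for more per 10000 peaks in KO. Whether this accounts for the changed signs was not tested. Depth limits all of these values, since no KO library was as deep as the shallowest WT library.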
